A study of Mus musculus with 6 samples.

Results

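The 10 genes described here are the Notch receptors Notch1, Notch2 and Notch3, the Notch ligand Jag1, the Notch target genes Hes1 and Heyl, and the Hedgehog genes Ptch1, Smo, Gli1 and Gli3. They were chosen by name and found as 10 of the 17001 gene rows of an mRNA expression table from mouse calvarial preosteoblasts. Of the 10 genes, 6 belong to the Notch pathway and 4 to the Hedgehog pathway.

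The study sequenced polyA RNA from preosteoblasts that had been isolated from mouse calvaria at an age of 3 days and grown in α-MEM with fetal bovine serum. It asked what loss of NELL2, a secreted EGF-like glycoprotein, does to gene expression in these cells. There were 3 libraries of genotype NELL2 fx/fx (control) and 3 libraries of genotype Col1-cre; NELL2 fx/fx (cKO), so the floxed allele was carried by both groups and the groups differed in the Cre transgene. In the cKO mice, Cre was driven by a Col1a1 promoter, which is active in osteoblast lineage cells, so other cells in a culture would keep an intact allele. The labels do not say whether the 3 libraries of a group came from separate mice, pools or cultures, and p-values here measure only the spread between these libraries, part of which may be technical. Values are FPKM (fragments mapped to a gene, scaled for transcript length and for the mapped fragments of the library), which can be compared between genes. The sequencing depth behind them is not given, so no counting error could be attached to the low values.

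Notch receptors are transmembrane proteins that bind Jagged or Delta-like ligands on a neighbouring cell. Binding leads to cleavage by ADAM proteases and γ-secretase, and the released intracellular domain joins RBPJ and Mastermind proteins in the nucleus to switch on genes of the Hes and Hey families, which encode transcriptional repressors. In the osteoblast lineage, Notch signalling is known for holding cells in an immature state. Hedgehog ligands bind the receptor PTCH1, which relieves its block on SMO at the primary cilium and changes GLI transcription factors from repressors to activators. Gli1 and Ptch1 are themselves target genes and are widely read as markers of pathway output, and Indian hedgehog is known for its role in osteoblast formation.

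The libraries did not separate by the gene named in their labels. Nell2 was listed at 3.17, 2.59 and 1.88 FPKM in control replicates 1, 2 and 3 and at 5.64, 1.61 and 5.74 FPKM in cKO replicates 1, 2 and 3. The highest 2 values and the lowest value were all in libraries labelled cKO. The mean was 2.55 ± 0.646 FPKM in control and 4.33 ± 2.36 FPKM in cKO (SD, n = 3), a log2 difference of 0.48 with a standard error of 0.37 (limma, adjusted p = 0.591). Leaving out 1 library moved the Nell2 difference to between 0.25 (without cKO replicate 3) and 0.93 (without cKO replicate 2). By qRT-PCR and western blotting, the study reported that NELL2 was deleted in calvarial preosteoblasts of cKO mice. It also reported lower osteogenic factors in these cells after osteogenic induction. The reason for the Nell2 values listed here was not tested. All directions given below are therefore between the libraries labelled cKO and the control libraries. Y-linked transcripts (Ddx3y, Eif2s3y, Kdm5d and Uty) also divided the libraries, with summed values of 0.01, 0.29 and 54.74 FPKM in control and 52.84, 0.01 and 49.57 FPKM in cKO, so the libraries of a group did not all come from the same animals. The preosteoblast label was met by its markers, since Col1a1, which encodes the main collagen of bone, averaged 8273 FPKM and Runx2, the master transcription factor of the lineage, lay between 10.98 and 14.71 FPKM.

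The 10 genes ran from an abundant transcript to barely detected ones. Over the 6 libraries the mean level ran down from Smo at 43.1 ± 2.62 FPKM (SD, n = 6) to Hes1 at 18.8 ± 3.1, Notch2 at 9.06 ± 0.811, Gli3 at 7.48 ± 0.521 and Jag1 at 6.68 ± 2.47 FPKM. Below these came Notch3 at 3.14 ± 0.669, Notch1 at 1.86 ± 0.340, Ptch1 at 1.01 ± 0.154, Heyl at 0.465 ± 0.278 and Gli1 at 0.122 ± 0.0768 FPKM. Smo was above 88.6% of all rows and Gli1 above 18.4%. The ranges over libraries overlapped between the neighbours Gli3 and Jag1, Notch3 and Notch1, Ptch1 and Heyl, and Heyl and Gli1, while the other neighbours in this order did not overlap.

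**Figure D1:**
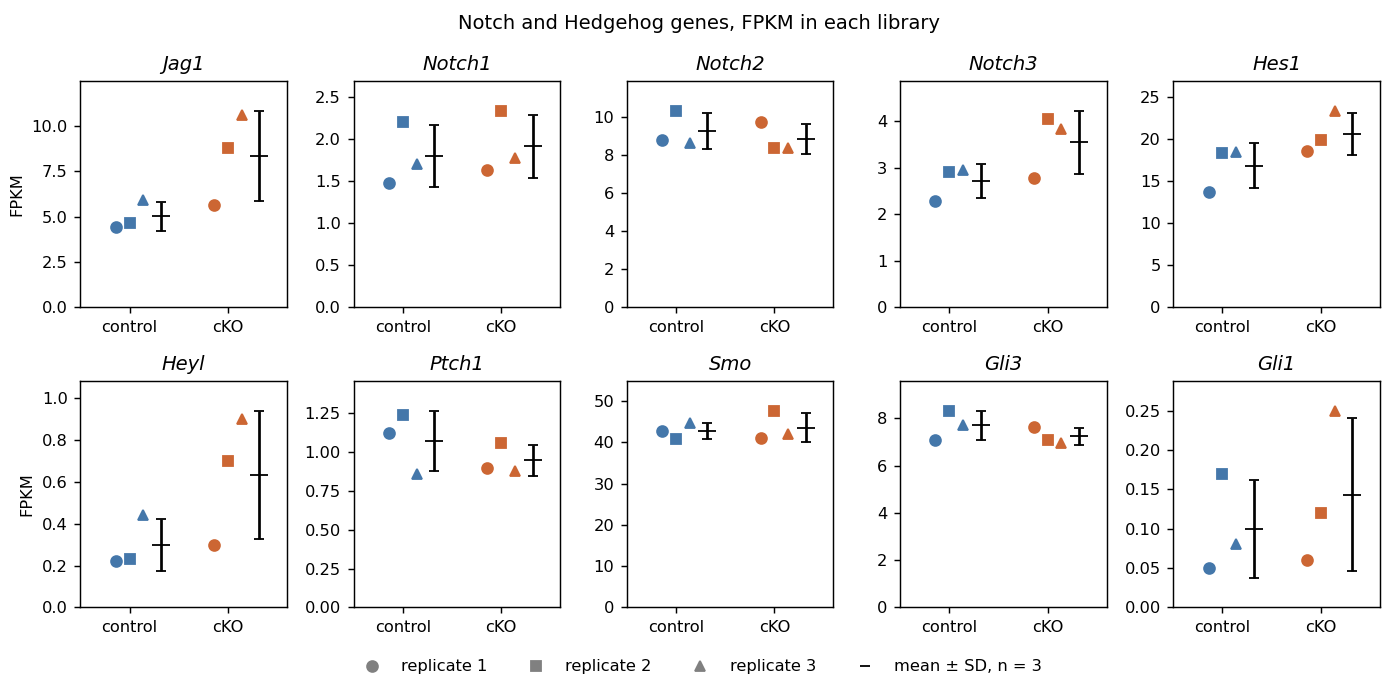
FPKM of the 10 genes in each of the 3 control and 3 cKO libraries, 1 panel a gene with its own axis, with points for libraries and a dash with bars for the mean ± SD (n = 3). Jag1 reaches 8.76 and 10.61 FPKM in cKO replicates 2 and 3, Hes1 is higher in every cKO library than in any control library, and the receptors and Hedgehog genes overlap between groups.

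No gene of the 10 passed the test between the groups. Of the 10, 8 passed the expression filter (at least 1 FPKM in at least 3 libraries) and were fitted with limma on log2(FPKM + 1), and Heyl and Gli1 were below it. At a Benjamini-Hochberg adjusted p under 0.05, limma called 0 of the 8 and 0 of all 11590 rows tested (0%), with a smallest adjusted p of 0.312 in the whole table. The study itself reported differentially expressed genes in both directions between these groups. It worked from reads normalized with DESeq, and its text does not state the threshold, so its count cannot be set beside the 0 found here. An unadjusted p under 0.05 was reached by 13.1% of all rows tested, 5.37% in the direction of a higher level in cKO and 7.76% in the direction of a lower level. Among the 8 tested genes this held for 1, Jag1, which was higher. The median log2 difference was 0.04 over the 8 genes and -0.02 over all rows tested, and 5 of the 8 were above 0 against 44.2% of all rows. Adding 1 to each FPKM shrinks the log2 differences of genes at low levels. Since these are bulk cultures, fewer cells expressing a gene and less RNA per cell cannot be told apart.

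Among the Notch ligands, Jag1 was the one expressed at a clear level. Jag1 (ENSMUSG00000027276, chr2:137081456-137116644 on the minus strand of GRCm38) was listed at 4.45, 4.64 and 5.94 FPKM in control replicates 1, 2 and 3 and at 5.67, 8.76 and 10.61 FPKM in cKO replicates 1, 2 and 3. The highest 2 values were in cKO replicates 2 and 3, and the groups overlapped through cKO replicate 1, which lay below control replicate 3. The mean was 5.01 ± 0.811 FPKM in control and 8.35 ± 2.50 FPKM in cKO (SD, n = 3), a ratio of 1.67. The log2 difference was 0.61 with a standard error of 0.21 and a 95% interval from 0.12 to 1.10 (limma, adjusted p = 0.321), and the exact two-sided permutation test over the 6 libraries gave p = 0.2, where 0.1 is the smallest p that 3 against 3 allows. Without cKO replicate 1, the log2 difference of Jag1 was 0.83 with a standard error of 0.13 (limma, adjusted p = 0.0361), in a fit that called 2.9% of all rows tested and 1.37% in the direction of a higher level. Leaving out any other library gave log2 differences of Jag1 down to 0.43 and adjusted p-values up to 0.681 by limma.

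The other ligands were low or stood apart in kind. Dll1 lay between 0.15 and 0.41 FPKM, Dll3 between 0 and 0.08, Dll4 between 0.07 and 0.36 and Jag2 between 0.07 and 0.23 FPKM over the 6 libraries. Jag1 thus made up 88.05 to 88.66% of the summed Jagged and Delta-like FPKM in control libraries and 91.1 to 93.4% in cKO libraries. Dlk1, a membrane protein related to the Delta ligands that lacks their receptor-binding DSL domain, averaged 42.2 FPKM with its highest value, 71.16 FPKM, in control replicate 3, and its log2 difference was -0.22 with a standard error of 0.33 (limma, adjusted p = 0.784). Its relative Dlk2 lay between 0.56 and 1.65 FPKM with the lower mean in cKO, and its log2 difference in the fit with no filter was -0.36 with a standard error of 0.14 (limma, adjusted p = 0.411).

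The 250 bases before the Jag1 start are shown because Jag1 had the largest log2 difference of the 8 tested genes. They are the RefSeq sequence of chr2:137116521-137116770 (GRCm38.p6, minus strand), and capitals mark CACGCG or its reverse complement CGCGTG, a short motif that HES family repressors bind. The RefSeq start differs from the gene bound given above, which is from GENCODE. That bound, 137116644, falls inside the window, so part of the window lies within the gene as GENCODE has it.
Jag1: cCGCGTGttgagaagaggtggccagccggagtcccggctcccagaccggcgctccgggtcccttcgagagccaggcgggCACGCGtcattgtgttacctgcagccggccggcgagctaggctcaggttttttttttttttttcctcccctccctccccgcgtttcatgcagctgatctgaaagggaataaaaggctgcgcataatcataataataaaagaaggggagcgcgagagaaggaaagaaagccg
The motif begins 249 and 171 bases before the RefSeq start. CACGCG on either strand was found in 7.62% of the 32851 RefSeq windows of this length. Other Notch genes with it in a window included Dll1, Dll4 and Dtx1. Windows were given for 7 of the 10 genes, all but Gli1, Hes1 and Heyl. None of the 7 held the RBPJ core TGGGAA on either strand, which 21.6% of all windows held, and none held the GLI motif TGGGTGGTC, which 0.225% held. These matches describe letters in the windows and are no evidence of binding.

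Notch2 was the main receptor in every library. It was listed at 8.81, 10.36 and 8.66 FPKM in control replicates 1, 2 and 3 and at 9.75, 8.40 and 8.38 FPKM in cKO replicates 1, 2 and 3, with cKO replicates 2 and 3 below every control library and cKO replicate 1 among them. Its share of the summed FPKM of Notch1 to Notch4 was 69.5, 66.5 and 64.2% in control and 68.1, 56.3 and 58.8% in cKO, lowest in cKO replicates 2 and 3. The means of Notch2 were 9.28 ± 0.941 and 8.84 ± 0.785 FPKM (SD, n = 3), and the interval of the log2 difference, from -0.28 to 0.16, covered 0 (limma, adjusted p = 0.786).

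Notch3, the receptor best known from vascular mural cells, had the largest log2 difference of the 3 tested receptors. It was listed at 2.29, 2.91 and 2.96 FPKM in control and at 2.78, 4.04 and 3.84 FPKM in cKO replicates 1, 2 and 3. As with Jag1, cKO replicates 2 and 3 were above every control library and cKO replicate 1 was among them. The means were 2.72 ± 0.373 and 3.55 ± 0.677 FPKM (SD, n = 3), with a log2 difference of 0.29, a standard error of 0.13 and an interval from -0.02 to 0.59 (limma, adjusted p = 0.403, and exact two-sided permutation p = 0.3). Without cKO replicate 1 the log2 difference of Notch3 was 0.41 with a standard error of 0.10 (limma, adjusted p = 0.0924). It was 0.20 without control replicate 1 (limma, adjusted p = 0.684) and 0.24 without cKO replicate 3 (limma, adjusted p = 0.726). Notch1 was listed at 1.48, 2.21 and 1.71 FPKM in control and at 1.63, 2.34 and 1.78 FPKM in cKO, a log2 difference of 0.06 with an interval from -0.24 to 0.36 (limma, adjusted p = 0.857). Its control and cKO values interleaved, and Notch4, the receptor of endothelial cells, was between 0.09 and 0.26 FPKM. Exons of Notch1 and Notch3 share bases with antisense or opposite-strand transcripts (1068 bases with 0610009E02Rik and 414 with Gm13568 for Notch1, 488 with Gm17276 for Notch3), and 541 exon bases of Notch2 are shared with Gm42820 on the same strand. Reads there cannot be told apart, for Notch1 and Notch3 unless strand was used in counting.

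Of the 47 other Notch pathway genes listed, 44 were in the table and 31 were tested. At an adjusted p under 0.05, limma called 0 of the 31. At an unadjusted p under 0.05, 2 were higher in cKO (Rbpj and Dtx4) and 0 were lower, against 5.37% and 7.76% of all rows tested. Their median log2 difference was 0.00, and 19 of the 31 were above 0. The most abundant were the γ-secretase subunit genes Psenen at 102 FPKM, Ncstn at 57.9 and Aph1a at 52.1 FPKM. Next came Numbl, an adaptor related to the Notch inhibitor Numb, at 51.2 FPKM and Dtx3, a gene of the Deltex family of ubiquitin ligases, at 45.3 FPKM. Poglut1 and Pofut1, which put O-linked sugars on the EGF repeats of Notch receptors, averaged 21.05 and 13.7 FPKM, and Rfng, one of the Fringe genes, which extend the fucose, averaged 15.9 FPKM. Itch, a ubiquitin ligase, averaged 15.3 FPKM.

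Rbpj, which encodes the DNA-binding partner of the Notch intracellular domain, had the largest difference of the tested genes in this list. It was listed at 16.37, 17.66 and 16.37 FPKM in control replicates 1, 2 and 3 and at 19.14, 23.56 and 24.34 FPKM in cKO replicates 1, 2 and 3. All 3 cKO values were above all control values, with cKO replicate 1 the nearest to them. The mean was 16.8 ± 0.745 FPKM in control and 22.3 ± 2.80 FPKM in cKO (SD, n = 3), and the log2 difference was 0.38 with a standard error of 0.10 (limma, adjusted p = 0.312). Without cKO replicate 1 the log2 difference of Rbpj was 0.49 with a standard error of 0.07 (limma, adjusted p = 0.0314). Other libraries left out singly gave log2 differences of Rbpj down to 0.32 and adjusted p-values up to 0.671 by limma. The genome also holds the Rbpj pseudogenes Rbpj-ps1 and Rbpj-ps3, which could share reads with it, so its level is uncertain. The other 5 genes of the nuclear complex, led by Snw1 at 31.0 FPKM and Maml1, a Mastermind coactivator gene, at 10.3 FPKM, had log2 differences between -0.096 (Spen) and 0.098 (Maml1). Dtx4, a Deltex gene that acts on receptor traffic, was listed at 1.31, 1.5 and 1.41 FPKM in control and at 1.93, 2.59 and 1.59 FPKM in cKO, a log2 difference of 0.32 with a standard error of 0.12 (limma, adjusted p = 0.342). The Dtx4 groups did not overlap either. Leaving out 1 library moved the log2 difference of Dtx4 to between 0.20 and 0.43, with adjusted p-values from 0.235 to 0.671 by limma.

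Hes1 is the best known of the target genes at the end of the Notch pathway. Hes1 (chr16:30064384-30067796 on the plus strand of GRCm38) was listed at 13.78, 18.34 and 18.54 FPKM in control replicates 1, 2 and 3 and at 18.66, 19.90 and 23.42 FPKM in cKO replicates 1, 2 and 3. All cKO libraries were above all control libraries, with control replicates 2 and 3 just below cKO replicate 1. Hes1 was the 1 gene of the 8 whose groups did not overlap in this direction, which held for 6.51% of all rows tested. The mean was 16.9 ± 2.69 FPKM in control and 20.7 ± 2.47 FPKM in cKO (SD, n = 3), the log2 difference was 0.28 with a standard error of 0.13 and an interval from -0.04 to 0.60 (limma, adjusted p = 0.418), and the exact two-sided permutation test gave p = 0.1, the smallest it can give. Among the other 31 tested Notch genes, 3 had groups that did not overlap with cKO higher (Rbpj, Dtx4 and Hes6) and 0 with cKO lower, against 6.51% and 11.8% of all rows tested. Hes6, a relative of Hes1 that counteracts it, was listed at 18.57, 19.00 and 16.99 FPKM in control and at 19.51, 20.29 and 19.88 FPKM in cKO, a log2 difference of 0.12 (limma, adjusted p = 0.452).

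The Hey family was listed at low levels with the higher means in cKO. Heyl was at 0.22, 0.23 and 0.44 FPKM in control replicates 1, 2 and 3 and at 0.30, 0.70 and 0.90 FPKM in cKO replicates 1, 2 and 3. Hey1 was at 0.08, 0.22 and 0.35 FPKM in control and at 0.27, 0.86 and 0.90 FPKM in cKO, and Hey2 was at 0.07, 0.02 and 0.09 FPKM in control and at 0.18, 0.28 and 0.37 FPKM in cKO. For Heyl and Hey1, cKO replicates 2 and 3 were above every control library and cKO replicate 1 was below control replicate 3, while for Hey2 all cKO libraries were above all control libraries. Exact two-sided permutation tests over the 6 libraries gave p = 0.2 for Heyl, p = 0.2 for Hey1 and p = 0.1 for Hey2. In the fit with no filter, the log2 difference of Heyl was 0.32 with a standard error of 0.15 (limma, adjusted p = 0.471), that of Hey1 was 0.45 with a standard error of 0.18 (limma, adjusted p = 0.426) and that of Hey2 was 0.27 with a standard error of 0.07 (limma, adjusted p = 0.38). All values of these 3 genes were under 1 FPKM, where few reads can lie behind a difference. The feedback targets Nrarp, between 0 and 0.21 FPKM, and Hes7, between 0 and 0.47 FPKM, were as low.

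**Figure D2:**
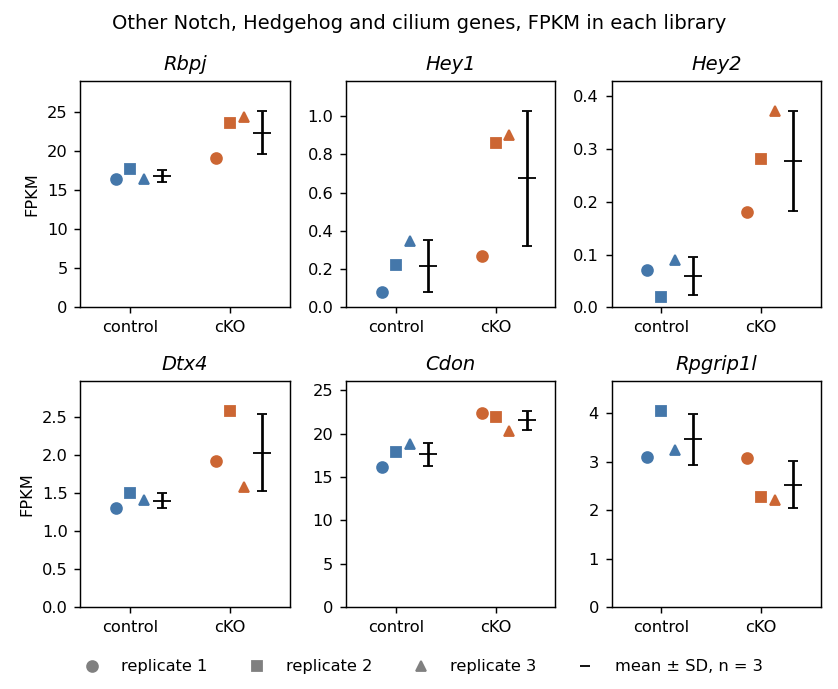
FPKM of Rbpj, Hey1, Hey2, Dtx4, Cdon and Rpgrip1l in each library, 1 panel a gene with its own axis, with points for libraries and a dash with bars for the mean ± SD (n = 3). The groups do not overlap for Rbpj, Hey2, Dtx4 and Cdon, which are higher in cKO, nor for Rpgrip1l, which is lower, and Hey1 in cKO replicate 1 lies among the control libraries.

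The windows before the Rbpj and Hey2 starts are shown because both genes were higher in all cKO libraries and both windows hold the RBPJ core. They are RefSeq sequences (GRCm38.p6) of chr5:53590096-53590345 on the plus strand, which belongs to 1 of the 2 Rbpj starts listed, and of chr10:30842784-30843033 on the minus strand, and capitals mark TGGGAA or its reverse complement TTCCCA.
Rbpj: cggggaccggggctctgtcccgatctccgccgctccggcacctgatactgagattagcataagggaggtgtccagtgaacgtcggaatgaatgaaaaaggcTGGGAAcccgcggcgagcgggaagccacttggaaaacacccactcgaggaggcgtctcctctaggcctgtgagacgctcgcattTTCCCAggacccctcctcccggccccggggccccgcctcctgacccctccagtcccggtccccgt
Hey2: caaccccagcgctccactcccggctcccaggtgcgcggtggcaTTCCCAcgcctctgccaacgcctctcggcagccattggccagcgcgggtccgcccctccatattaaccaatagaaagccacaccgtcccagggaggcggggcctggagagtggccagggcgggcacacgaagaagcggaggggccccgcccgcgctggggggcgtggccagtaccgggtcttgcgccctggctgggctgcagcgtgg
The Rbpj matches begin 149 and 65 bases before this RefSeq start and the Hey2 match 207 bases before its own RefSeq start. In GENCODE the Rbpj gene spans chr5:53466152-53657362, so this Rbpj window lies inside the gene. The Hey2 gene ends there at chr10:30842801, so part of the Hey2 window overlaps the gene. The Hey2 match is part of the longer form GTGGGAA, which contains TGGGAA and was found in 5.42% of all windows. Neither Hes6 nor Cdon, which were also higher in all cKO libraries, held the RBPJ core in a window. Dtx4 and Hes1, higher in all cKO libraries too, had no window given. The core was found in 21.6% of all windows. The Rbpj and Hey2 windows were chosen for holding it, so their matches are no evidence of binding. Of the 72 other Notch, Hedgehog and cilium genes with a window, 19 held the RBPJ core in at least 1 of their windows, a count of genes that is not on the scale of the share of windows above.

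On the receiving side of the Hedgehog pathway, Smo was abundant and even. It was listed at 42.70, 40.75 and 44.56 FPKM in control replicates 1, 2 and 3 and at 40.95, 47.67 and 42.05 FPKM in cKO replicates 1, 2 and 3, with the groups overlapping. The means of Smo were 42.7 ± 1.91 and 43.6 ± 3.60 FPKM (SD, n = 3), and the interval of the log2 difference ran from -0.16 to 0.21 (limma, adjusted p = 0.904). Ptch1, receptor and target at once, was listed at 1.12, 1.24 and 0.86 FPKM in control and at 0.90, 1.06 and 0.88 FPKM in cKO. It passed the filter with exactly 3 libraries at or above 1 FPKM, its groups overlapped, and its log2 difference was -0.09 with an interval from -0.29 to 0.12 (limma, adjusted p = 0.672). Smo was listed at 32.9 to 51.8 times the level of Ptch1 in control libraries and 45.0 to 47.8 times in cKO libraries.

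The co-receptors were also well expressed. Gas1, Boc and Cdon encode surface proteins that help PTCH1 bind the ligand, and they averaged 95.3, 18.9 and 19.6 FPKM. Cdon was listed at 16.19, 17.82 and 18.75 FPKM in control replicates 1, 2 and 3 and at 22.38, 21.92 and 20.24 FPKM in cKO replicates 1, 2 and 3. All cKO values of Cdon were above all control values, and unlike Jag1 and Rbpj the highest was in cKO replicate 1. The Cdon means were 17.6 ± 1.30 and 21.5 ± 1.13 FPKM (SD, n = 3), with a log2 difference of 0.28 and a standard error of 0.08 (limma, adjusted p = 0.312). The log2 differences of Gas1 and Boc were 0.06 and 0.05 (limma, adjusted p = 0.898 and 0.832).

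Hedgehog ligands, Gli1 and Hhip were listed under 1 FPKM in every library of both groups. Shh lay between 0 and 0.04 FPKM, Ihh between 0 and 0.07 and Dhh between 0.08 and 0.37 FPKM. Gli1 was listed at 0.05, 0.17 and 0.08 FPKM in control replicates 1, 2 and 3 and at 0.06, 0.12 and 0.25 FPKM in cKO replicates 1, 2 and 3, with overlapping groups (exact two-sided permutation p = 0.6). Hhip, a membrane-bound ligand trap that is a target gene, lay between 0.44 and 0.78 FPKM. The exons of Gli1 share 62 bases with Arhgap9 and 265 with Gm47200 on the opposite strand.

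Of the GLI factors, Gli3, the main repressor, took 79.3 to 81.3% of the summed FPKM of Gli1 to Gli3 in control libraries and 78.5 to 84.4% in cKO libraries. Gli3 was listed at 7.10, 8.33 and 7.73 FPKM in control and at 7.64, 7.10 and 6.97 FPKM in cKO, where cKO replicates 2 and 3 equalled or were below the lowest control value and cKO replicate 1 was between the control values. The means were 7.72 ± 0.615 and 7.24 ± 0.355 FPKM (SD, n = 3), with a log2 difference of -0.08 and an interval from -0.26 to 0.10 (limma, adjusted p = 0.652). Gli2, the main activator, averaged 1.64 FPKM with a log2 difference of -0.14 (limma, adjusted p = 0.47). Gli3 shares 188 exon bases with Gm6556 on the opposite strand.

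**Figure D3:**
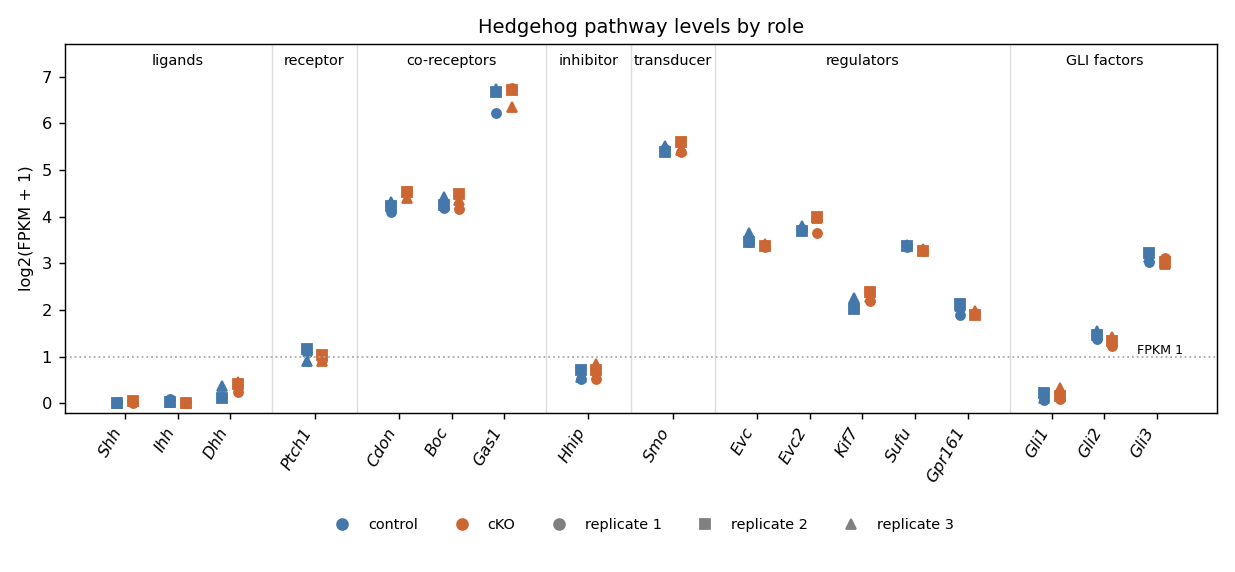
Levels of Hedgehog pathway genes in each library on a log2(FPKM + 1) axis, ordered by role, with 1 point a library and a dotted line at 1 FPKM. Smo, Gas1, Boc, Cdon and Gli3 lie above the line in all 6 libraries, and Shh, Ihh, Dhh, Gli1 and Hhip lie below it in all 6.

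Of the 30 other Hedgehog pathway genes listed, 19 were tested, limma called 0 at an adjusted p under 0.05, and at an unadjusted p under 0.05 1 was higher in cKO (Cdon) and 0 were lower, against 5.37% and 7.76% of all rows tested. Their median log2 difference was 0.05, with 11 of the 19 above 0. Groups that did not overlap were found for 1 gene with cKO higher (Cdon) and for 3 with cKO lower (Evc, Sufu and Prkaca), against 6.51% and 11.8% of all rows tested. Sufu, which encodes the cytoplasmic inhibitor that holds GLI proteins, was listed at 9.19, 9.35 and 9.49 FPKM in control and at 8.67, 8.65 and 8.93 FPKM in cKO, a small difference of -0.09 on the log2 scale (limma, adjusted p = 0.525). Prkaca, the catalytic subunit of the kinase that primes GLI proteins for processing, averaged 58.4 FPKM with a log2 difference of -0.15, and Evc, a ciliary partner of SMO, averaged 9.94 FPKM with a log2 difference of -0.15 (limma, adjusted p = 0.441 and 0.428). The most abundant genes of the transduction steps were Csnk1a1 at 75.8 FPKM, Prkaca and Spop at 42.4 FPKM, and those of ligand release were Disp1 at 11.5, Hhat at 6.11 and Scube2 at 1.08 FPKM. Ccnd1, a cyclin gene that Hedgehog and other pathways raise, was the most abundant of the other targets and was listed at 104.26, 94.37 and 60.84 FPKM in control and at 65.56, 76.59 and 51.65 FPKM in cKO, with a log2 difference of -0.40 and a standard error of 0.22 (limma, adjusted p = 0.478). Leaving out 1 library moved the Ccnd1 difference to between -0.63 and -0.25.

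**Figure D4:**
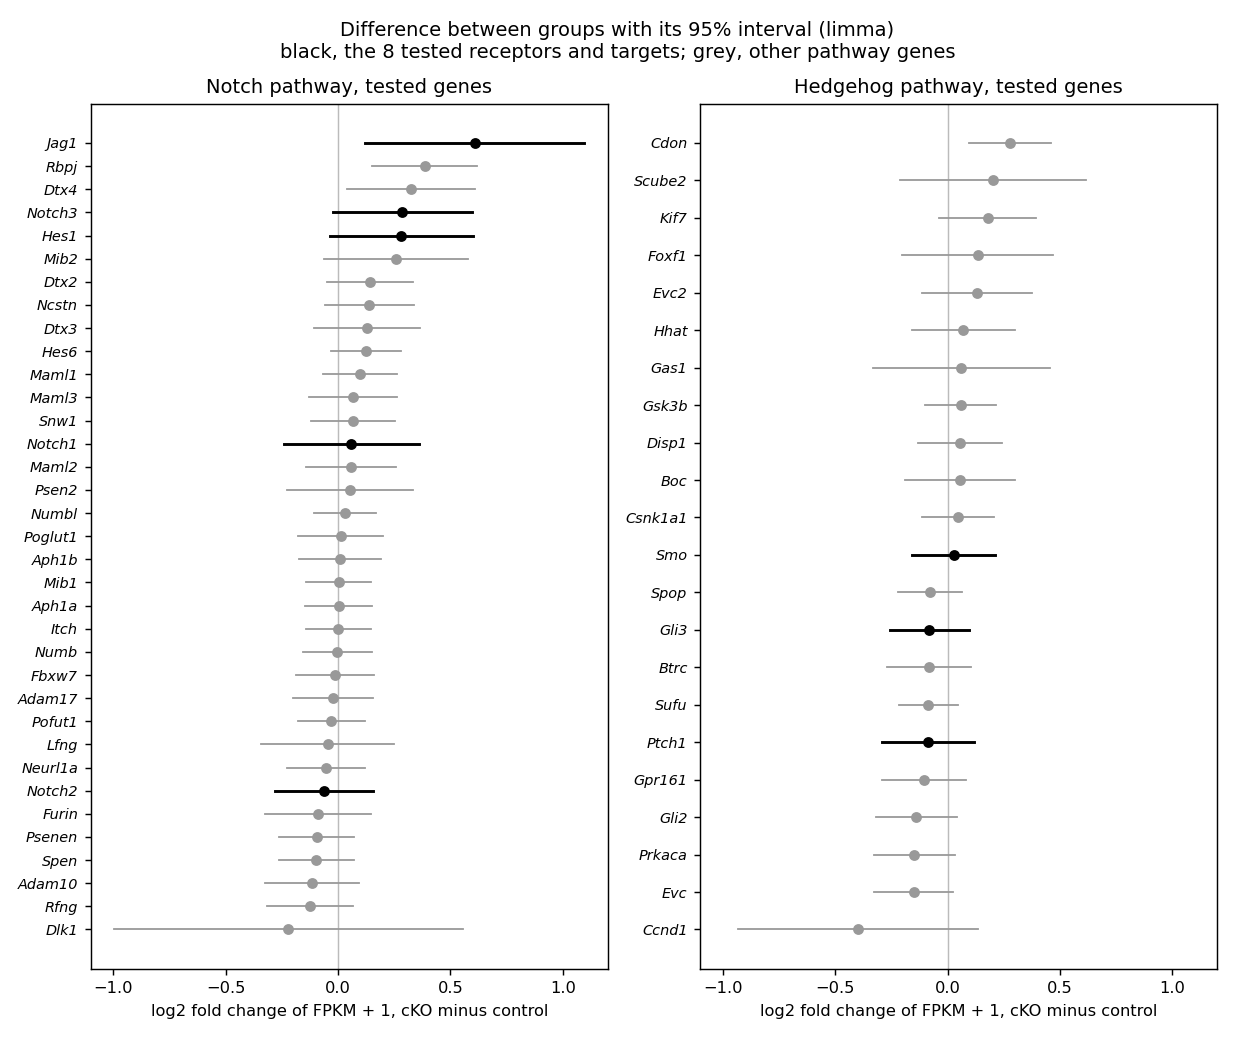
Log2 differences, cKO minus control, on the log2(FPKM + 1) scale with 95% intervals from limma for tested genes of the Notch and Hedgehog lists, with the 8 tested genes of the 10 in black and the other pathway genes in grey. The intervals of Jag1, Rbpj, Dtx4 and Cdon lie above 0, none lies below it, and no adjusted p is under 0.05.

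Genes of the primary cilium, the organelle through which SMO acts, were read beside the pathway. Of 14 cilium assembly genes, 13 were tested, limma called 0 at an adjusted p under 0.05, and at an unadjusted p under 0.05 0 were higher and 1 was lower, against 5.37% and 7.76% of all rows tested, with a median log2 difference of -0.06. The lower gene was Rpgrip1l, which encodes a protein of the ciliary transition zone, at 3.09, 4.05 and 3.23 FPKM in control replicates 1, 2 and 3 and at 3.08, 2.27 and 2.22 FPKM in cKO replicates 1, 2 and 3. Its cKO values were all below its control values, narrowly in replicate 1, with a log2 difference of -0.34 and a standard error of 0.12 (limma, adjusted p = 0.337). The most abundant cilium genes were Ift20 at 46.7, Tulp3 at 29.1 and Ift52 at 19.0 FPKM, and Ift20, which was also lower in all cKO libraries, had a log2 difference of -0.16 (limma, adjusted p = 0.401). Groups that did not overlap with cKO lower were found for these 2 genes of the 13, against 11.8% of all rows tested.

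The higher means of Jag1, Notch3, Rbpj, Heyl and Hey1 came mostly from cKO replicates 2 and 3, whereas Cdon was highest in cKO replicate 1 and Dtx4 was higher there than in cKO replicate 3. Leaving out cKO replicate 1 moved the count of all rows called by limma at an adjusted p under 0.05 from 0 to 334 (2.9% of those tested), and among the 8 tested genes of the 10 from 0 to 1, Jag1. Among the other Notch genes it moved from 0 to 1, Rbpj. For Hes1 the log2 difference without that library was 0.35 (limma, adjusted p = 0.243), but 0.15 without control replicate 1 (limma, adjusted p = 0.693). For Cdon it was 0.25 without cKO replicate 1 (limma, adjusted p = 0.176).

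**Figure D5:**
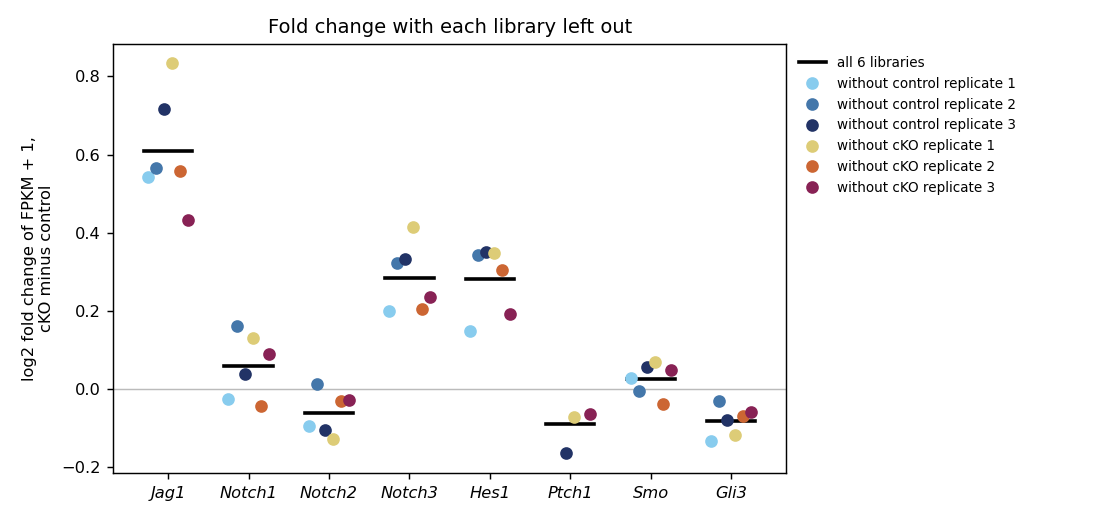
Log2 difference, cKO minus control, of the tested genes of the 10 with all 6 libraries and with each library left out in turn, on the log2(FPKM + 1) scale. Jag1 runs from 0.43 to 0.83 and is highest without cKO replicate 1, Notch3 and Hes1 stay above 0, and Notch1, Notch2 and Smo cross 0.

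Markers of cell types that are known to use these pathways were read in the same libraries, and their part in the values above was not tested. Genes of mural and smooth muscle cells, which use Notch3 and Heyl, were all listed above an FPKM of 0 in every library, with summed levels of 210, 230.95 and 202.75 FPKM in control and 211.87, 197.56 and 213.69 FPKM in cKO. Of the 8, 6 were tested, 1 was higher in cKO at an unadjusted p under 0.05 (Abcc9, log2 difference 0.38) and 0 were lower, against 5.37% and 7.76% of all rows tested. Of the 6 tested genes, 4 had log2 differences above 0, against 44.2% of all rows tested. Pdgfrb was the most abundant at 106 FPKM. The log2 differences of Pdgfrb, Des and Cspg4 were 0.14, 0.28 and 0.03 (limma, adjusted p = 0.479, 0.474 and 0.967). Cnn1 and Myh11, of smooth muscle, had log2 differences of -0.33 and -0.22 (limma, adjusted p = 0.428 and 0.551). The pericyte gene Rgs5, untested, was at 0.58, 0.46 and 0.59 FPKM in control and at 0.15, 0.27 and 0.27 FPKM in cKO. All cKO libraries were thus below all control libraries for Rgs5 (log2 difference without a filter -0.33, limma adjusted p = 0.38). Kcnj8, also untested, was at 0.16, 0.39 and 0.37 FPKM in control and at 0.34, 0.91 and 0.56 FPKM in cKO, with overlapping groups. Its log2 difference without a filter was 0.28 (limma, adjusted p = 0.493). The 6 endothelial genes summed to 1.83, 2.13 and 3.96 FPKM in control and to 1.55, 3.00 and 3.11 FPKM in cKO, of which Cdh5 was the most abundant at 0.967 FPKM and Cldn5 was listed at 0 in control replicate 2. Of the endothelial genes, 1 was tested, with an unadjusted p above 0.05.

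No bone or cartilage marker passed the adjusted test, and Col1a1 and Col1a2, the collagen genes of bone, had log2 differences of -0.0090 and 0.038 (limma, adjusted p = 0.961 and 0.808). Of the 7 preosteoblast genes, all tested, 4 were lower in cKO at an unadjusted p under 0.05 and 0 were higher, against 7.76% and 5.37% of all rows tested, shares that also stand behind the counts below. Sp7, the transcription factor downstream of Runx2, was listed at 17.57, 16.86 and 13.20 FPKM in control and at 12.44, 10.40 and 10.31 FPKM in cKO (log2 difference -0.48), and Alpl, the bone alkaline phosphatase, at 36.44, 33.08 and 25.15 FPKM in control and at 23.09, 22.65 and 22.03 FPKM in cKO (log2 difference -0.45), both with a limma adjusted p of 0.312. The cKO values of both genes lay below every control value. Of the 6 genes of maturing osteoblasts, 4 were tested. Ibsp and Bglap were lower at an unadjusted p under 0.05 (log2 differences -1.27 and -1.15). Ifitm5 (log2 difference -1.05) was at 4.08, 2.06 and 1.28 FPKM in control and at 0.63, 0.64 and 0.5 FPKM in cKO. It passed the filter only through the control libraries, where it was high, so its test is not counted. The summed levels of the 6 genes were 146.93, 78.66 and 62.44 FPKM in control and 41.94, 47.94 and 36.01 FPKM in cKO, with Ibsp the most abundant at 53.8 FPKM. The untested genes of this list had higher means in cKO through 1 library: Dmp1 was at 2.31, 0.58 and 0.38 FPKM in control and at 0.06, 9.32 and 0.21 FPKM in cKO, and Phex at 0.14, 0.2 and 0.15 FPKM in control and at 0.13, 0.57 and 0.04 FPKM in cKO. Of 6 cartilage genes, 5 were tested and all 5 had log2 differences above 0. At an unadjusted p under 0.05, 3 were higher (Acan, Col9a1 and Comp, log2 differences 0.50, 0.45 and 0.65). The cartilage genes summed to 155.02, 168.44 and 99.22 FPKM in control and 153.74, 178.91 and 173.75 FPKM in cKO. Col2a1 led them at 109 FPKM and Matn1 was listed at 0 in 5 libraries.

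Epithelial genes summed to 0.46, 3.56 and 13.2 FPKM in control and to 42.51, 35.25 and 15.94 FPKM in cKO, with Krt18 the most abundant at 9.15 FPKM. Of the 4, 3 were tested. Krt18 and Krt8 were higher at an unadjusted p under 0.05 (log2 differences 2.48 and 2.31), against 5.37% of all rows tested. Epcam (log2 difference 1.0) was at 0, 0.15 and 0.47 FPKM in control and at 1.37, 1.58 and 1.21 FPKM in cKO. It passed the filter only through the cKO libraries, where it was high, so its test is not counted. Macrophage genes (4 of 6 tested, led by Lyz2 at 48.9 FPKM) summed to 58.1, 33.03 and 89.79 FPKM in control and to 44.56, 66.32 and 72.99 FPKM in cKO. Skeletal muscle genes (3 of 5 tested, led by Acta1 at 29.1 FPKM) summed to 53.07, 44.37 and 82.71 FPKM in control and to 54.54, 70.91 and 59.1 FPKM in cKO. Neither list had a gene with an unadjusted p under 0.05. With presence of Y-linked transcripts as a covariate, the log2 difference of Jag1 was 0.58 with a standard error of 0.23 (limma, adjusted p = 0.48).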

How the data were processed

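RNA from 3 control and 3 cKO libraries was enriched for polyA RNA and sequenced as paired reads. The deposited table holds FPKM values with 2 decimals, not counts, which the authors made from reads aligned to GRCm38. The submitters' processing notes name HISAT2 and DESeq without versions. The FPKM program, annotation release and use of strand are not given in the sources used here. All 6 columns were used and 0 were left over. FPKM sums were 573307 to 606428 a library, and the depth is unknown: the lowest values gave a median ratio of 1 between libraries, but rounding to 2 decimals makes this coarse and no reads were recovered. Of the 17001 rows, 11 are 0 in every library and 25 are gene symbols turned into dates.

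Rows that reached 1 FPKM in 3 or more libraries were tested on log2(FPKM + 1), with a pseudocount of 1, by limma 3.58.1 in R 4.3.3 (two-sided, Benjamini-Hochberg over all 11590 tested rows, threshold 0.05). The fit was tested on simulated data. That test checked that the median of known fold changes was recovered, and how often such changes were called is not reported here. Single values were compared by exact permutation over libraries. Alternatives were other pseudocounts, filters and scalings, a variance trend, a replicate block, a Y-linked covariate and leaving out each library. Named genes were Nell2, the 10 members, the 3 most abundant genes of each pathway list, those with an unadjusted p under 0.05, ligands and receptors under 1 FPKM in most libraries, and cell type markers. Other genes of the lists were named for their role or because their groups did not overlap, after their values were seen. The members and lists were chosen with earlier results of these data known. Gene positions are from GENCODE M21 (GRCm38), and start-site windows from RefSeq (GRCm38.p6). Some genes of the lists are counted but not reported here by name.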

Additional observations from a re-analysis of the deposited data

How the results depend on the processing

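With 16 alternatives, 140 values of single genes were recomputed, of which 134 kept their direction and side of the threshold. The others were Jag1 without cKO replicate 1, which passed (0.83, limma adjusted p = 0.0361), and 5 that changed sign. Leaving out 1 library at a time, the log2 difference ran from -0.042 to 0.16 for Notch1, from -0.13 to 0.013 for Notch2 and from -0.038 to 0.069 for Smo, with the other sign for Notch1 without control replicate 1 or cKO replicate 2, for Notch2 without control replicate 2, and for Smo without control replicate 2 or cKO replicate 2. The count called over all rows, 0 with all libraries, ran from 0 to 334 when 1 library was left out (2 without control replicate 3, 334 without cKO replicate 1), from 0 to 1 among the members and from 0 to 1 among the other Notch genes. By unadjusted p under 0.05 the counts were 1521 for all rows, 1 for the members, 2 for the other Notch genes, 1 for the other Hedgehog genes and 1 for the cilium genes. Leaving out 1 library moved them to 852 to 2459 for all rows, 0 to 2 for the members and 1 to 2 for the other Notch genes. Median centring gave 2 of the 8 members tested, against 1474 of 11590 rows. Without a filter, 4 of 44 other Notch genes passed (Rbpj, Dtx4 and Hey2 higher, Dlk2 lower), against 1997 of 16990 rows. These unadjusted counts under each alternative were added after seeing the data. The labels do not say whether replicate numbers pair the libraries. Deviations of same-numbered libraries from their group means correlated at 0.03, -0.17 and 0.21 over the tested rows, which cannot settle it. A replicate block called 0 rows at an adjusted p under 0.05, with 1465 rows and 3 members (Jag1, Hes1 and Notch3) at an unadjusted p under 0.05. Ptch1, close to the filter, had no value under 4 alternatives. The shift of the median of all rows between scalings stayed between -0.03 and 0.00. Values under 1 FPKM are limited by a depth that is not known.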
